A study of Mus musculus with 4 samples.

Results

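The enzymes of the pentose phosphate pathway and of cytosolic NADPH production were examined through 9 genes of the ID8 transcriptome. The genes were G6pdx, Pgls, Pgd, Rpia, Rpe, Tkt, Taldo1, Me1 and Idh1, and they were taken by gene symbol from a table of 22063 genes. All 9 were found, 1 row each, and all 9 passed the filter on low counts. The pentose phosphate pathway branches from glycolysis at glucose 6-phosphate. Its oxidative branch makes NADPH and ribulose 5-phosphate, and its reversible non-oxidative branch exchanges pentose phosphates for glycolytic intermediates. NADPH feeds glutathione and thioredoxin reduction and the synthesis of fatty acids and sterols, ribose 5-phosphate feeds nucleotide synthesis, and cytosolic malic enzyme and isocitrate dehydrogenase are further sources of NADPH.

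ID8 cells are a line of mouse ovarian cancer cells. RNA was sequenced from cells that carried a control shRNA (shCtrl, 2 libraries, genotype given as WT) and from cells with shRNA against USP9X (shUSP9X, 2 libraries, genotype given as a USP9X knockdown). USP9X is a deubiquitinase, an enzyme that takes ubiquitin off other proteins. In the study's methods the shRNAs were cloned into the lentiviral vector pLKO.1-puro and ID8 cells were kept in DMEM with fetal bovine serum. The sources used here do not state which of the listed shRNAs against mouse USP9X the sequenced cells carried, whether both shUSP9X libraries carried the same one, whether TGF-β1 was added, the oxygen level, or whether the 2 libraries of a group came from separate cultures. The p-values therefore measure the spread between these libraries, which may be technical or, in shUSP9X, may include a difference between shRNAs. The depth was 17232006 and 15611363 estimated counts for shCtrl, and 19978889 and 17021261 for shUSP9X. The 9 genes took up 0.204 and 0.209% of these counts in the control libraries, and 0.283 and 0.282% after knockdown.

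Expression is given as CPM, the estimated counts scaled to library size after TMM normalization, and a gene was called changed at an adjusted p under 0.05 in edgeR's quasi-likelihood test over 11448 genes. The knockdown itself was measured first. Usp9x (chrX:13071498-13173328, GRCm38) stood at 298 and 282 CPM in the shCtrl libraries and at 19.7 and 20.5 CPM in the shUSP9X libraries. The shUSP9X libraries were both far below the control libraries, with a log2 fold change of -3.85 ± 0.06 (SE, n = 2 per group, adjusted p = 4.7e-26 in edgeR). In bulk RNA, fewer cells of a kind and less RNA per cell cannot be told apart. Of the genes tested, 67.3% were called changed, 33.8% higher and 33.6% lower in shUSP9X, so a call by itself was common in this comparison.

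The fold changes across all genes followed the GC content of the transcripts. With the genes divided by GC content into deciles of equal size, the lowest decile had a median log2 fold change of -0.88, the next -0.41 and the eighth 0.25. Fold changes are therefore also given after an offset that removed the trend on GC content and transcript length within each library, a correction that takes out any difference following these properties, whatever its source. With it, Usp9x had a log2 fold change of -2.07, 38.6% of the genes were called higher and 25.6% lower. What part this trend had in a given gene was not tested beyond that value.

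The epithelial and mesothelial character of ID8 cells was visible in the libraries. The keratin genes Krt8, Krt18 and Krt19 and the mesothelial genes Wt1, Msln and Upk3b all stood at 162.66 CPM or more in each library. In contrast, Krt7 was at most at 0.1781 CPM and Cdh1 at most at 3.29 CPM. Muc16 went from 1.90 and 2.72 CPM in shCtrl to 0.0506 and 0 CPM in shUSP9X. These markers did not move together. Krt8 and Krt18 had log2 fold changes of 0.92 and 0.64 (0.67 and 0.35 with the offset), and Wt1 and Msln of -0.52 and -0.47 (-0.68 and -0.71 with the offset). Krt19 was at 0.12 before and -0.15 after the offset, and Upk3b was not called, at 0.05. Vim, the most abundant of the list, had 0.39 (0.17 with the offset) and Cdh2 -0.50 (-0.44 with the offset). Of 10 leukocyte markers, 1 had more than 3 counts in each shCtrl library, and 6 and 5 had in the shUSP9X libraries. Their summed level was 4.33 and 4.36 CPM in shCtrl and 15.1 and 15.1 CPM in shUSP9X, with Cd68 the most abundant and Cd3e and C1qa at 0 in all 4 libraries. Itgam, an integrin of myeloid cells, had no count in the shCtrl libraries and stood at 3.64 and 4.45 CPM in the shUSP9X libraries. Summed fibroblast markers were at 252 and 259 CPM in shCtrl and at 148 and 145 CPM in shUSP9X, with Dcn the most abundant and Lum and Thy1 at 0 in every library. The 3 fibroblast markers tested, Pdgfra, Col1a1 and Dcn, were all called lower in both fits. Their log2 fold changes were -2.87, -1.72 and -0.46 (-2.55, -1.72 and -0.13 with the offset). Summed endothelial markers were at 10.7 and 11.7 CPM in shCtrl and at 6.88 and 7.18 CPM in shUSP9X, with Tek the most abundant and Cdh5, Kdr and Emcn at 0. Erythroid markers summed to at most 0.653 CPM, with Hba-a1 the most abundant. The part of these markers in the results below was not tested.

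Sequence at the start sites is shown because several of these genes are known targets of NRF2, the transcription factor that binds antioxidant response elements. RefSeq start sites (GRCm38.p6) gave 12 windows for the 9 genes, from 250 bases before to 50 bases after each start. The core element TGANNNNGC was searched on both strands and was found in 6 of these windows, those of G6pdx, Pgd, Tkt, Taldo1, Me1 and Idh1, and in 41.3% of all 32851 windows. The stricter form TGACNNNGC was found in 3 of the 12 windows, those of G6pdx, Pgd and Me1, against 12.4% of all windows. The AP-1 element TGACTCA can overlap the antioxidant response element. It was found in 1 of the 12 windows, for Me1 inside its TGACNNNGC match, against 5.2% of all windows. No window of Pgls, Rpia or Rpe held these letters. Capitals below mark the 9 bases of the match, and each line reads 5′ to 3′ on the strand of the gene. For G6pdx and Idh1 the match lies on the opposite strand, as TGACTGAGC and TGAGGCAGC, so the capitals show its reverse complement.
G6pdx (chrX:74428918-74428947, minus strand): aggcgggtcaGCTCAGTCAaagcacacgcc
Pgd, second start (chr4:149166060-149166089, minus strand): atttcagagcTGACATTGCactgatcggac
Tkt (chr14:30549084-30549113, plus strand): cggcctggggTGATTCGGCgccccgcccca
Taldo1 (chr7:141391929-141391958, plus strand): tgaggcttacTGAGCGCGCgtctcagtaga
Me1 (chr9:86695901-86695930, minus strand): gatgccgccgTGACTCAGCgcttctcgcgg
Idh1 (chr1:65186468-65186497, minus strand): aggacttaacGCTGCCTCAgccatcctgaa
Counted from the start site, with no position 0, the match began at -57 for G6pdx, -37 for Tkt, -221 for Taldo1, -6 for Me1, -8 for Idh1 and 4 for the second start of Pgd. The first bases after the RefSeq start of Taldo1 were held by 0 GENCODE M21 transcripts of the gene, against 1 or more for each other window. The position given for Taldo1 therefore rests on RefSeq alone. These matches are a description of the letters, and no binding was measured.

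Of the 9 genes, 5 were higher (G6pdx, Pgd, Rpia, Tkt and Taldo1), 3 were lower (Pgls, Rpe and Idh1) and Me1 was not called, against 33.8% higher and 33.6% lower among all genes tested. With the offset, the lower values of Rpe and Idh1 turned positive. In that fit 7 genes were higher and Pgls alone lower, against 38.6% higher and 25.6% lower among all genes tested. The median log2 fold change of the 9 was 0.49, against 0.00 for all genes, and 0.36 against 0.07 with the offset. At the cutoff that the study's methods give (p under 0.05 without adjustment, and more than a 1.5-fold change), 4 of the 9 genes were higher (G6pdx, Pgd, Rpia and Tkt) against 10.8% of all genes, and 0 were lower against 18.7%.

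**Figure D1:**
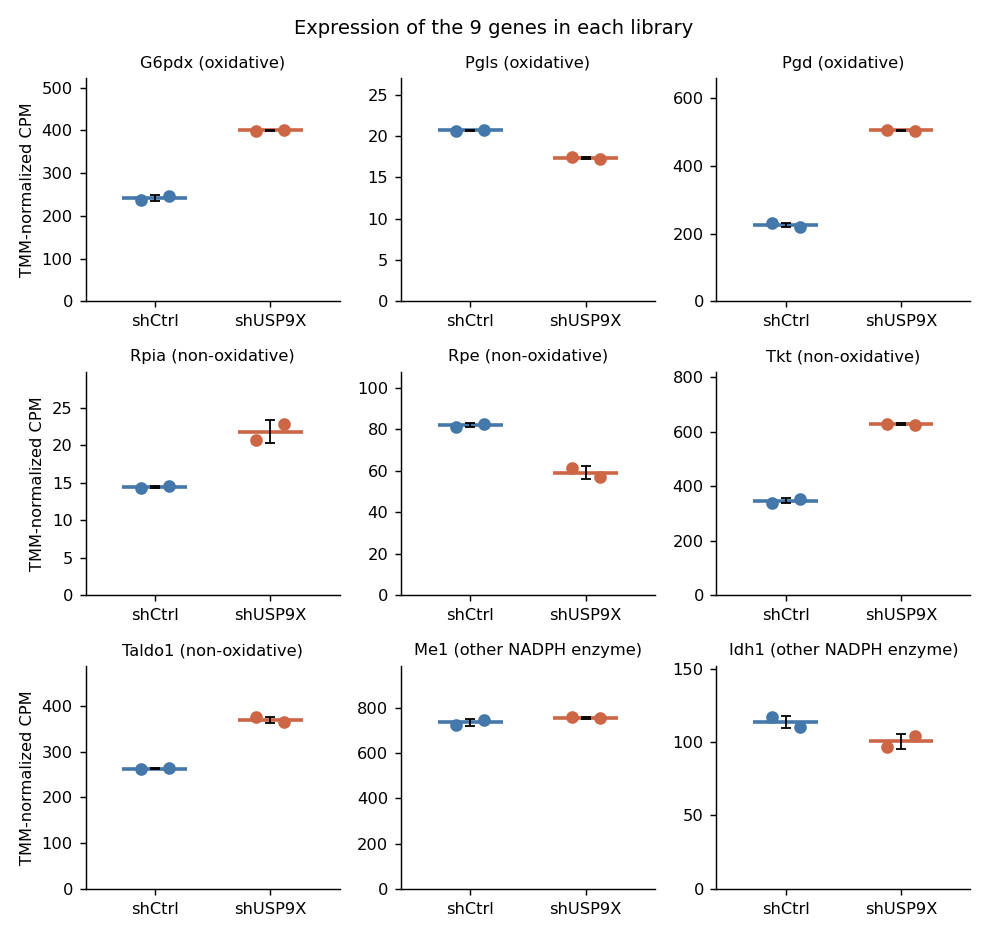
TMM-normalized CPM (y axis, from 0) of each of the 9 genes in the 2 shCtrl and 2 shUSP9X libraries (points), with the group mean as a line and the SD as a black bar. G6pdx, Pgd, Tkt, Taldo1 and Rpia were higher in both shUSP9X libraries, Pgls, Rpe and Idh1 were lower before the GC content and length offset, with Rpe and Idh1 turning positive after it, and Me1 was not called.

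In the oxidative branch, both NADPH-producing dehydrogenases were higher in shUSP9X cells and the lactonase between them was slightly lower. G6pdx (chrX:74409483-74429194) encodes glucose-6-phosphate dehydrogenase, which makes the first NADPH and commits glucose 6-phosphate to the pathway. G6pdx stood at 236 and 247 CPM in shCtrl and at 399 and 401 CPM in shUSP9X. Both shUSP9X libraries were above both controls, a 1.66-fold difference (log2 fold change 0.73 ± 0.04, SE, n = 2 per group, adjusted p = 4e-15 in edgeR, and 0.55 with the offset).

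Pgd (chr4:149149991-149166771) encodes 6-phosphogluconate dehydrogenase, which makes the second NADPH while it releases CO2. Pgd was at 230.1 and 220.2 CPM in shCtrl and at 506 and 502 CPM in shUSP9X, with both shUSP9X libraries above both controls. Its level was 2.24-fold higher, the largest fold among the 9 genes in this fit (log2 fold change 1.16 ± 0.04, SE, adjusted p = 1.4e-19 in edgeR, and 0.94 with the offset). Of all genes tested, 312 (2.73%) had a larger positive log2 fold change.

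Pgls (chr8:71592176-71601092) encodes 6-phosphogluconolactonase, which opens the lactone ring made by the first dehydrogenase. Pgls was at 20.6 and 20.7 CPM in shCtrl and at 17.5 and 17.3 CPM in shUSP9X. The shUSP9X libraries were both below the controls, by a log2 fold change of -0.25 ± 0.11 (SE, adjusted p = 0.039 in edgeR, and -0.36 with the offset). This call was not kept in DESeq2 (adjusted p = 0.15), with upper quartile scaling (0.07), without the filter on low counts (0.054) or with any 1 of the 4 libraries left out (0.085 to 0.14). The balance of the 2 dehydrogenases also shifted, since the ratio of Pgd to G6pdx in FPKM, a level per transcript length, was 1.15 and 1.05 in shCtrl and 1.5 and 1.48 in shUSP9X.

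Some of these genes share exon sequence with a neighbor, and the sources used here do not state that counting used strand. G6pdx shared 418 of its 3080 exon bases (13.6%) with Ikbkg, a gene of NF-κB signaling on the opposite strand, which itself went from 44.4 and 44.3 CPM to 81.5 and 78.7 CPM (log2 fold change 0.85, and 1.53 with the offset). Pgls shared 776 of its 3770 exon bases (20.6%) with Fam129c on the same strand, with 9 and 8 counts in the controls, and 3 and 9 after knockdown. Reads in the shared stretches cannot be told apart.

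In the non-oxidative branch, transketolase, transaldolase and the ribose isomerase were higher, whereas the ribulose epimerase was lower before and higher after the offset. Tkt (chr14:30548359-30574720) encodes transketolase, which moves a pair of carbons between sugar phosphates. Tkt was at 339 and 353 CPM in shCtrl and at 629 and 626 CPM in shUSP9X. Its level was 1.81-fold higher in shUSP9X, with no overlap of the groups (log2 fold change 0.86 ± 0.04, SE, adjusted p = 2.4e-17 in edgeR, and 0.70 with the offset).

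Taldo1 (chr7:141392199-141402968) encodes transaldolase, which transfers a dihydroxyacetone unit. Taldo1 was at 262 and 264 CPM in shCtrl and at 375 and 365 CPM in shUSP9X. The groups were well apart, at a 1.41-fold difference (log2 fold change 0.49 ± 0.04, SE, adjusted p = 9.3e-12 in edgeR), and the value with the offset was smaller, at 0.19 (adjusted p = 2.3e-05). The ratio of Tkt to Taldo1 in FPKM was 0.525 and 0.541 in shCtrl and 0.680 and 0.716 in shUSP9X.

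Rpia (chr6:70765720-70792232) encodes ribose-5-phosphate isomerase, which makes the ribose 5-phosphate used for nucleotides. Rpia was at 14.3 and 14.5 CPM in shCtrl and at 20.8 and 22.9 CPM in shUSP9X. It was 1.51-fold higher in shUSP9X, with both libraries above the controls (log2 fold change 0.60 ± 0.11, SE, adjusted p = 3.8e-05 in edgeR, and 0.36 with the offset).

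Rpe (chr1:66700831-66719805) encodes ribulose-5-phosphate 3-epimerase, which makes xylulose 5-phosphate, a substrate of transketolase. Rpe was at 81.3 and 82.8 CPM in shCtrl and at 61.3 and 56.9 CPM in shUSP9X. Both shUSP9X libraries were below the controls (log2 fold change -0.47 ± 0.06, SE, adjusted p = 1.2e-07 in edgeR), but the direction turned with the offset, to 0.50 (adjusted p = 9.7e-08), so that no direction can be given for Rpe independent of scaling. Its transcript had the lowest GC content of the 9, 39.1%, which placed it in the lowest decile, where the median of all genes was -0.88. Rpe shared 558 of its 3113 exon bases (17.9%) with Kansl1l on the opposite strand, which had a log2 fold change of -1.13 (-0.32 with the offset, adjusted p = 0.11, not called). The estimated count of Rpe was a whole number in none of the 4 libraries.

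**Figure D2:**
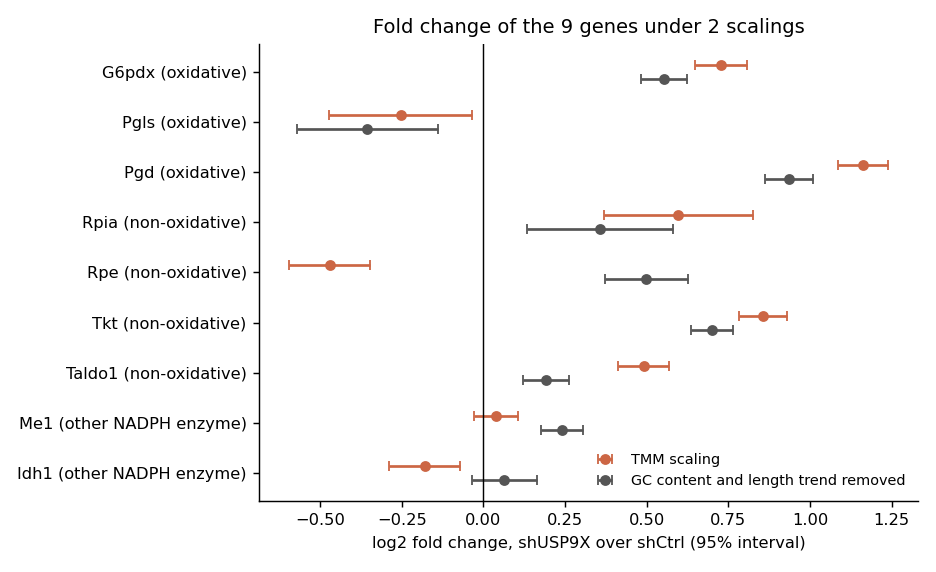
Log2 fold change of shUSP9X over shCtrl (x axis) for the 9 genes with 95% intervals derived from the edgeR test, with TMM scaling (orange) and after the GC content and length offset (gray). G6pdx, Pgd, Tkt, Taldo1 and Rpia lay above 0 and Pgls below 0 in both, Rpe moved from -0.47 to 0.50, Idh1 from -0.18 to 0.06 and Me1 from 0.04 to 0.24.

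Me1 and Idh1, the genes of cytosolic malic enzyme and isocitrate dehydrogenase, had small fold changes in both fits. Me1 (chr9:86581371-86695953) encodes cytosolic malic enzyme, which makes NADPH as it turns malate into pyruvate. Me1 was at 724 and 746 CPM in shCtrl and at 757 and 753 CPM in shUSP9X. The groups lay side by side, with a log2 fold change of 0.04 (95% interval -0.03 to 0.11, adjusted p = 0.31 in edgeR). With the offset the value was 0.24 (adjusted p = 1.7e-07), and without the second shCtrl library it was 0.07 (adjusted p = 0.027).

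Idh1 (chr1:65158616-65186500) encodes cytosolic NADP-dependent isocitrate dehydrogenase. Idh1 was at 117 and 111 CPM in shCtrl and at 96.8 and 104 CPM in shUSP9X. The shUSP9X libraries lay just below the controls (log2 fold change -0.18 ± 0.05, SE, adjusted p = 0.0039 in edgeR), but the value was 0.06 with the offset (adjusted p = 0.25) and -0.12 without the first shUSP9X library (adjusted p = 0.17).

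Set against genes of like GC content, the 9 genes separated into those outside the middle range and those within it. G6pdx and Taldo1 fell in the seventh decile of GC content, whose upper quartile of log2 fold change was 0.43, and Pgd and Tkt in the eighth, whose upper quartile was 0.51. Rpia fell in the sixth, with an upper quartile of 0.38. All 5 lay above the upper quartile of their decile. The deciles did not match transcript length. With the offset, which also covers length, Taldo1 had a log2 fold change of 0.19, below the 0.24 of Me1. Rpe, Idh1 and Me1 lay within the quartiles of their own deciles, the first, the second and the third, which ran from -1.68 to -0.38, from -0.89 to -0.09 and from -0.56 to 0.12. Pgls, with the highest GC content of the 9 (65.9%), lay below the lower quartile of the last decile, -0.15.

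**Figure D3:**
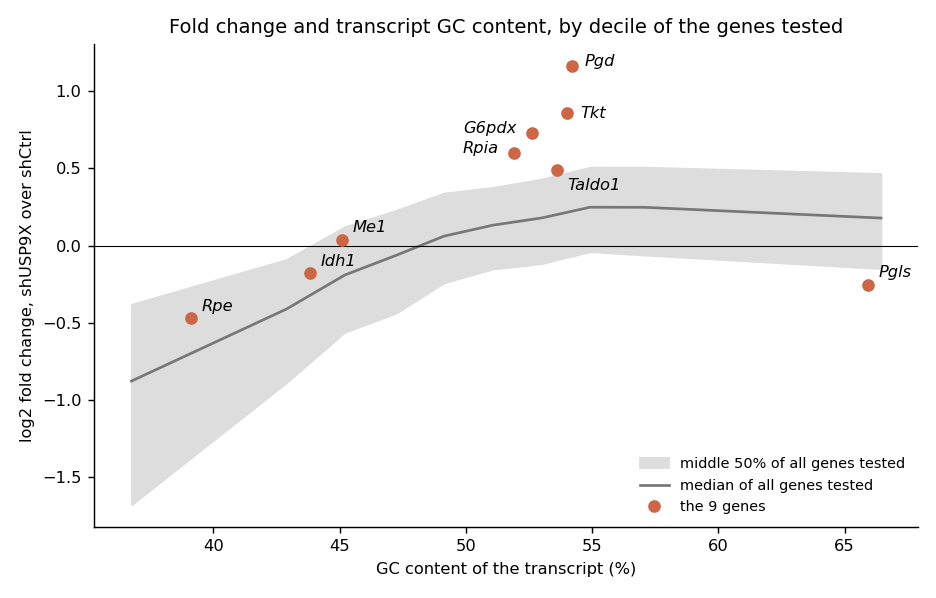
Log2 fold change of shUSP9X over shCtrl with TMM scaling (y axis) against GC content of the transcript in percent (x axis), with the median (line) and middle 50% (band) of all genes tested in deciles of GC content, drawn at the middle of each decile's range, and the 9 genes as points. Rpia, G6pdx, Taldo1, Tkt and Pgd lay above the upper quartile of their decile, Me1, Idh1 and Rpe within the band and Pgls below it.

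Levels of different genes were compared per transcript length, in FPKM. In shCtrl the order from high to low was Me1, Taldo1, Tkt, Pgd, G6pdx, Idh1, Rpe, Pgls and Rpia. Me1 had 226 ± 6 FPKM (SD, n = 2) and Rpia 7.96 ± 0.13 FPKM. In shUSP9X, Taldo1 was first, at 298 ± 6 FPKM, and Pgd moved ahead of Tkt, at 225 ± 1 against 208 ± 3 FPKM. No neighbors in either order overlapped between their libraries, and the closest were Me1 and Pgd in shUSP9X, at 227 ± 1 and 225 ± 1 FPKM.

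**Figure D4:**
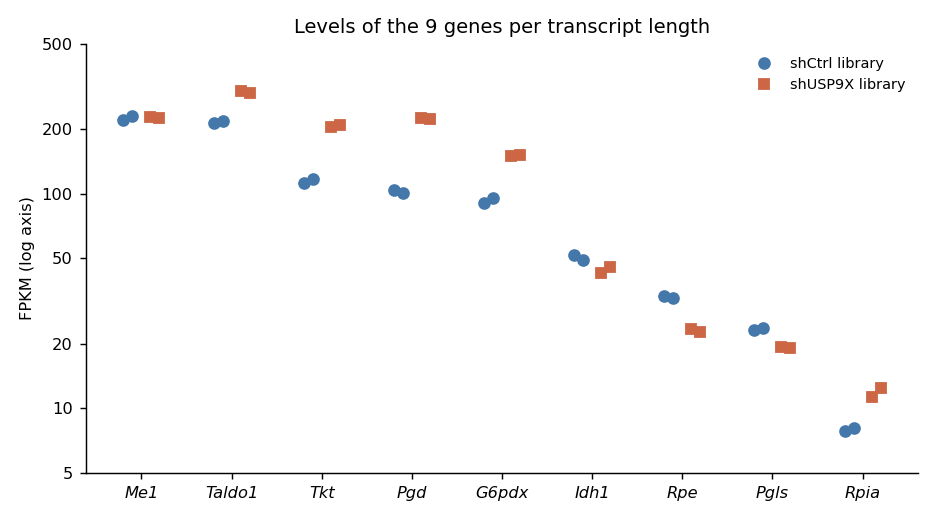
FPKM (log axis) of the 9 genes in each library, ordered by their mean in shCtrl, with shCtrl libraries as circles and shUSP9X libraries as squares. Me1 was highest in shCtrl and Taldo1 in shUSP9X, and Rpia was lowest in both.

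Further genes of the pathway and of ribose use were read as a list of 13, of which 10 were tested. Of these, 5 were higher, 1 was lower and 4 were not called (33.8% higher and 33.6% lower among all genes), and the median of the list was 0.27 (0.36 with the offset). H6pd, the dehydrogenase of the endoplasmic reticulum that carries out the first oxidative steps there, rose by 0.59 on the log2 scale (0.55 with the offset). The phosphoribosyl pyrophosphate synthetase Prps1 rose by 0.40 and the genes of its associated proteins, Prpsap1 and Prpsap2, by 0.75 and 0.37 (0.48, 0.48 and 0.39 with the offset), whereas Prps2 had -0.26 before and 0.35 after the offset. The phosphoglucomutase gene Pgm1 had 0.16 and was called higher, a call lost with the offset (0.04, adjusted p = 0.31). Shpk, Rbks, Dera and Pgm2 had log2 fold changes of -0.27, 0.63, 0.17 and 0.13 (-0.45, 0.37, -0.02 and 0.13 with the offset) and were not called in either fit. The value of Rbks was 0.92 without shUSP9X replicate 1 and 0.33 without shUSP9X replicate 2. Dera was called higher with upper quartile scaling (0.20, adjusted p = 0.025) and Pgm2 without shCtrl replicate 2 (0.19, adjusted p = 0.044). The paralogs G6pd2 and Tktl2 had no count in any library, and Tktl1 had at most 1.

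Among 12 of 13 tested genes that make NADPH elsewhere or make and break down NADP, 2 were higher, 7 were lower and 3 were not called, with a median log2 fold change of -0.22 (4 higher, 4 lower and a median of -0.11 with the offset). The shares over all genes tested were 33.8% higher and 33.6% lower (38.6% and 25.6% with the offset). Nadk, the cytosolic NAD kinase, rose by 0.50, and Mthfd1, the cytosolic folate enzyme, by 0.63 (0.36 and 0.49 with the offset). Idh2, Me2, Mthfd2, Mthfd2l and Aldh1l2, genes of mitochondrial enzymes, had log2 fold changes of -0.28, -0.15, -0.50, -0.34 and -0.40 and were called lower. With the offset Idh2, Me2 and Mthfd2 stayed lower (-0.56, -0.17 and -0.67), whereas the calls of Mthfd2l (-0.10, adjusted p = 0.50) and Aldh1l2 (-0.12, adjusted p = 0.21) were lost. Mthfd2l was also not called in DESeq2 (adjusted p = 0.095), without shCtrl replicate 2 (0.12) or without shUSP9X replicate 1 (0.18), nor Me2 without shUSP9X replicate 2 (0.077). The transhydrogenase gene Nnt was at 35.7 and 45.9 CPM in shCtrl and at 35.4 and 11.4 CPM in shUSP9X. Only the second shUSP9X library was far below the others, and without it the log2 fold change of Nnt was -0.19 (adjusted p = 0.11 in edgeR) instead of -0.77 (adjusted p = 0.0041, and -0.82 with the offset). Nnt was not called in DESeq2 either (adjusted p = 0.39). Aldh1l1 was not tested, with 3 and 4 counts in the controls against 14 and 9 after knockdown. The NADP phosphatase genes Noct and Hddc3 had values of -0.36 and -0.09, and Noct, which was called, turned to 0.78 with the offset, while Hddc3 was not called in either fit (-0.37 with the offset). Me3 and Nadk2, whose enzymes are also mitochondrial, were not called, at -0.12 and -0.13, and both turned positive with the offset, to 0.05 and 0.32, where Nadk2 was called higher.

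Reductases and oxidases, most of which use NADPH, and genes of lipid synthesis, a process that spends it, were read as lists. The lipid list also holds steps that do not use NADPH and the regulators Srebf1 and Srebf2, and the first list holds the NADH enzyme Cyb5r3. Of the 15 tested reductases and oxidases reported here, 13 were higher and 2 were not called, with a median of 0.57 (9 higher and 2 lower, median 0.44, with the offset). The all-gene shares were 33.8% higher and 33.6% lower (38.6% and 25.6% with the offset). The quinone reductase gene Nqo1 was at 25.6 and 26.7 CPM in shCtrl and at 163 and 156 CPM in shUSP9X. Both shUSP9X libraries were far above both controls, with a log2 fold change of 2.61 ± 0.06 (SE, adjusted p = 9.5e-23 in edgeR, and 2.49 with the offset). The carbonyl reductase gene Cbr3 rose by 1.78, the biliverdin reductase gene Blvrb by 1.58 and the glutathione reductase gene Gsr by 0.92 on the log2 scale (1.46, 1.26 and 0.79 with the offset).

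Of the 14 tested lipid synthesis genes reported here, 8 were higher, 4 were lower and 2 were not called, with a median of 0.21 (7 higher, 3 lower and a median of 0.0844 with the offset). Over all genes tested, 33.8% were higher and 33.6% lower (38.6% and 25.6% with the offset). The fatty acid synthase gene Fasn was at 433 and 444 CPM in shCtrl and at 692 and 721 CPM in shUSP9X, both above the controls, and rose by 0.69 on the log2 scale (1.20 with the offset). The ATP citrate lyase gene Acly rose by 0.40, the acetyl-CoA carboxylase gene Acaca by 0.36 and the sterol demethylase gene Cyp51 by 0.32 (0.34, 1.27 and 0.49 with the offset). The fatty acid elongase gene Elovl6 had a log2 fold change of -1.38 (-0.75 with the offset). The acetyl-CoA synthetase gene Acss2 had -0.39 and the desaturase gene Scd2 -0.24 (-0.54 and -0.13 with the offset). Hmgcs1 of the mevalonate pathway had -0.43, a call lost with the offset (-0.01, adjusted p = 0.79).

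The list of NRF2 targets, without the 9 genes, had 25 of 26 genes tested, of which 23 were higher, 1 was lower and 1 was not called, with a median of 0.92 (22 higher, 0 lower and a median of 0.86 with the offset). In all genes tested, 33.8% were higher and 33.6% lower (38.6% and 25.6% with the offset). The NRF2 list holds 5 of the reductase genes counted above, Nqo1, Txnrd1, Gsr, Cbr3 and Ptgr1. The glutathione transferase gene Gsta1 stood at 3.52 and 3.35 CPM in shCtrl and at 103 and 96.0 CPM in shUSP9X, a log2 fold change of 4.86 (4.71 with the offset). Gsta1 has close copies in the genome, so its reads may be split with theirs. Gsta4 rose by 1.53 (1.29 with the offset). The cystine transporter gene Slc7a11 was the gene called lower, at -0.40, and turned to 1.17 with the offset.

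Among regulators of the pathway, 10 of 11 genes were tested, of which 6 were higher, 2 were lower and 2 were not called, with a median of 0.34 (6 higher, 3 lower and a median of 0.29 with the offset). Across all genes tested, 33.8% were higher and 33.6% lower (38.6% and 25.6% with the offset). Nfe2l2, the gene of NRF2, was at 356 and 360.2 CPM in shCtrl and at 437 and 439.9 CPM in shUSP9X. The shUSP9X libraries were both above the controls, by a log2 fold change of 0.29 ± 0.04 (SE, adjusted p = 6.1e-08 in edgeR, and 0.29 with the offset). Keap1, which targets NRF2 for degradation, rose by 0.64, and Bach1, a repressor at the same elements, had -0.70 (0.54 and -0.36 with the offset). Trp53, whose product can bind and inhibit glucose-6-phosphate dehydrogenase, rose by 0.81, and Tigar, the fructose bisphosphatase that diverts sugar to the pathway, by 0.38 (0.55 and 0.35 with the offset). Myc rose by 0.97 and Mlx by 0.50, whereas Mlxipl, the glucose-responsive partner of Mlx, had -1.40 (0.76, 0.29 and -1.52 with the offset). Sirt2 and the glucose transporter gene Slc2a1 were not called, at -0.10 and 0.10, but with the offset Sirt2 was called lower (-0.34, adjusted p = 2.5e-05) and Slc2a1 turned to -0.06. Sirt2 was also called lower without shCtrl replicate 1 (-0.17, adjusted p = 0.025) or shUSP9X replicate 2 (-0.19, adjusted p = 0.032), and Slc2a1 higher with upper quartile scaling (0.13, adjusted p = 0.02). Over all fits run, the log2 fold change of Sirt2 ranged from -0.34 to -0.0034. The log2 fold change of Slc2a1 was 0.11 without shCtrl replicate 2. Trp73 had no count.

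At the branch point with glycolysis, 8 of 10 genes were tested, of which 4 were higher and 4 lower, with a median of 0.04 (2 higher, 4 lower and a median of -0.15 with the offset). Among all genes tested, 33.8% were higher and 33.6% lower (38.6% and 25.6% with the offset). The hexokinase genes Hk1 and Hk2, which supply glucose 6-phosphate, rose by 0.43 and 0.45 (0.36 and 0.47 with the offset). The phosphofructokinase genes Pfkl, Pfkm and Pfkp, which commit sugar to glycolysis, had -0.60, -0.30 and -0.30, all 3 called lower in both fits (-0.71, -0.49 and -0.27 with the offset). The isomerase gene Gpi1 had 0.18 and the aldolase gene Aldoa 0.25, and both calls were lost with the offset (0.01 and -0.03, adjusted p = 0.87 and 0.34). The isomerase gene Tpi1 had -0.10 (-0.37 with the offset) and was not called with upper quartile scaling (adjusted p = 0.096) or without either shUSP9X library (0.12 and 0.22). Fbp1 had at most 2 counts in a library and Fbp2 none.

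Of the 12 genes that handle malate, pyruvate and citrate around Me1 and Idh1, all were tested, 9 were higher, 0 were lower and 3 were not called, with a median of 0.28 (6 higher, 2 lower and a median of 0.11 with the offset). All genes tested had shares of 33.8% higher and 33.6% lower (38.6% and 25.6% with the offset). The cytosolic aconitase gene Aco1 rose by 0.72, the aspartate aminotransferase gene Got1 by 0.55, the malate dehydrogenase gene Mdh2 by 0.46 and the citrate synthase gene Cs by 0.40 (0.62, 0.33, 0.16 and 0.29 with the offset).

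**Figure D5:**
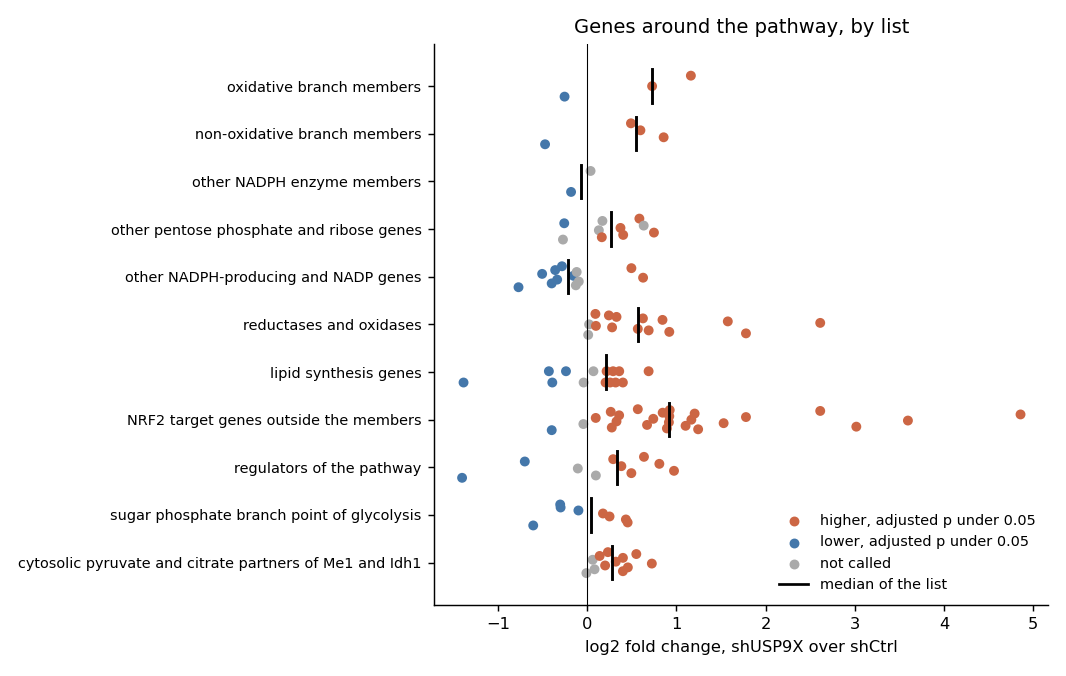
Log2 fold change of shUSP9X over shCtrl with TMM scaling (x axis) for each tested gene (point) of the 9 genes by role and of the lists around them (y axis), colored by edgeR call, with the median of each list as a black line. Medians ran from -0.22 for the other NADPH-producing and NADP genes to 0.92 for NRF2 targets. Of the genes called with TMM scaling, Rpe, Idh1, Prps2, Noct, Akr1a1, Cyb5r3, Slc7a11, Txn1, Aldoa, Slc25a1 and Idh3g had the opposite sign with the GC content and length offset.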

How the data were processed

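RNA-seq libraries of ID8 cells (2 shCtrl, 2 shUSP9X, grouped by the titles in the labels) were made from oligo(dT)-enriched RNA with a NEBNext Ultra kit. The authors deposited estimated counts per gene, not normalized, and FPKM values, which they had scaled for length and library size. The methods of the study name mapping to GRCm38, StringTie and DESeq2 (p-value under 0.05, fold change above 1.5), and the submitters' processing notes name fastp 0.18.0, Bowtie2 2.2.8, HISAT2, StringTie 1.3.1 and RSEM, with no role or order.

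Here the estimated counts were rounded, filtered with filterByExpr, TMM-normalized and tested in edgeR 4.0.16 (R 4.3.3) by the two-sided quasi-likelihood test, and p-values were adjusted by Benjamini-Hochberg over 11448 genes. The common biological coefficient of variation was 0.0352. Both pairs of libraries varied beyond sampling noise (chi-square per gene 3.38 for shCtrl, 2.08 for shUSP9X), and none was counted as a duplicate. Technical repeats can also vary beyond sampling noise, so this cannot show that the libraries of a group came from separate cultures. The offset was a loess curve (span 0.3) fitted per library to GC content and transcript length from GENCODE M21, which held 21973 of the 22063 gene identifiers, including all 9 genes. Molecular identifiers are not described, so errors cover counting and library spread only, and 3 counts were taken as the floor of detection.

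The other fits were DESeq2 1.42.0, edgeR with other scalings and filters, limma-trend (limma 3.58.1) on log2 FPKM with a pseudocount of 1 or 0.1 (mean FPKM at or above 1), a replicate block, and each library left out. Scripts were tested on simulated data. The 9 genes, the lists and the tests were chosen with earlier results of these data known. Named genes are Usp9x, the 9 genes, all genes of the lists of further pathway genes, NADPH-producing and NADP genes, regulators and glycolytic branch point genes, the up to 4 highest and 4 lowest called genes of the other lists (mean log2 CPM of at least 4, no overlap of groups), cell type markers and genes that share exons with the 9. Txnrd1 and Ptgr1, shared by 2 lists, Acss2, Srebf1 and Srebf2, and Akr1a1, Cyb5r3, Txn1, Slc25a1 and Idh3g were named after their values were seen. The lists of reductases, lipid synthesis genes and leukocyte markers are each given without 1 gene that is not reported here, so their counts and medians cover the remaining genes.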

Additional observations from a re-analysis of the deposited data

How the results depend on the processing

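G6pdx, Pgd, Rpia, Tkt and Taldo1 were called higher under every alternative run with an adjusted p. The count of all genes changed was 7707, 7665 with the replicate block, 6563 in DESeq2, 6741 to 7521 with a library left out, and 3376 at the cutoff of the methods, which drops the adjustment and adds a fold change above 1.5. The number of the 9 genes called lower was 3, and was 1 with the GC content and length offset, with or without the replicate block, 0 at that cutoff, and 1 to 2 with a library left out. In DESeq2, with upper quartile scaling and without the filter on low counts, 2 of the 9 genes were called lower. The median log2 fold change of the 9 genes, 0.49, was 0.52 with upper quartile scaling, 0.46 with library size only, 0.50 without the filter, 0.48 with at least 10 counts in every library, 0.46 and 0.46 on log2(FPKM + 1) and log2(FPKM + 0.1), 0.36 and 0.36 with the offset without and with the replicate block, and 0.48 to 0.52 with a library left out. With the offset, without and with the replicate block, log2 fold changes turned sign for Rpe (0.50 and 0.50), Idh1 (0.0639 and 0.0636), Dera (-0.0238 and -0.0238), Prps2 (0.35 and 0.35), Me3 (0.0456 and 0.0539), Nadk2 (0.32 and 0.32), Noct (0.78 and 0.78), Slc7a11 (1.17 and 1.17), Slc2a1 (-0.0587 and -0.0589) and Aldoa (-0.0294 and -0.0293). Slc7a11 was also positive on log2(FPKM + 1) and log2(FPKM + 0.1), at 0.0884 and 0.10. With a library left out, the sign turned for Shpk without shUSP9X replicate 1 (range -0.85 to 0.19), Hddc3 without shCtrl replicate 1 (-0.30 to 0.18) and Me3 without shCtrl replicate 1 or shUSP9X replicate 1 (-0.37 to 0.22), genes not called with all 4 libraries. The cause of these differences was not tested. Same-numbered libraries did not deviate together (Pearson's r = -0.05 across genes), and 2 pairs are too few to show pairing, so the numbers are not taken to pair the libraries. The replicate block by itself changed no call of the 9 genes. Rpia and Pgls had the fewest counts of the 9, which left them the widest intervals.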
